A study of Saccharomyces cerevisiae with 6 samples.

Results

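Nascent transcription in a budding yeast strain deleted for CLN3 was set against that of the wild-type haploid BY4741 on 6 genomic run-on arrays, 3 per strain, out of the 18 arrays and 6 strains of the series. The arrays were taken by their titles and array names: those titled as the cln3 deletion, whose array names hold BQS2006, and those titled as the wild type with a single genome copy. The other 4 strains, a whi5 deletion and wild-type diploid, triploid and tetraploid strains, serve here only as a reference of 12 arrays. Per the labels, both strains came from exponential cultures in rich medium (YPD), were permeabilised with 0.5% sarkosyl and were labelled with 33P-UTP for 5 minutes at 30 °C. The label for the source of the cln3 deletion sample names instead wild-type cells with KCl at 0.6 M, so a salt treatment and the deletion cannot be told apart, and every direction below is for the arrays labelled cln3 deletion. The labels do not say whether the deletion strain derives from BY4741, whether it is 1 clone, or whether the 3 arrays of a strain came from separate cultures, and p-values measure the spread between these arrays only.

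Cln3 is a G1 cyclin: with the kinase Cdc28 it brings the cell to Start, in part by relieving the repressor Whi5 from the transcription factor SBF, after which the G1/S genes are switched on. Cells without Cln3 pass Start late and at a larger volume. In genomic run-on, the detergent stops new initiation while polymerases already engaged extend their transcripts with labelled UTP, so a spot reports how many polymerases were transcribing its open reading frame and not the amount of mRNA.

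The membranes carried whole open reading frames in 6144 spots, set out as 16 rows by 24 columns of blocks with 16 positions each. The files give a spot's place and pair no spot with a gene, so CLN3 itself, WHI5 and the G1/S genes could not be looked up, the deletion was not checked on its own gene, and no pathway was tested. A level is the log2 ratio of run-on signal to genomic DNA signal on the same membrane, centred on the array's median spot. A level of 1 thus lies 2-fold above the median spot. Signal-to-noise (S/N) of at least 2 was reached by 73.5% to 79.0% of spots on each of the 6 arrays, on all 3 haploid arrays by 4192 spots, on all 3 cln3 deletion arrays by 4372, and on all 6 by 3989. Levels correlated across spots with r from 0.875 to 0.944 between haploid arrays, 0.865 to 0.934 between cln3 deletion arrays and 0.835 to 0.936 between the strains, which is a description over spots. The value of 0.936 was for the pair on membrane 14, which shares its genomic DNA, as does the pair on membrane 13 (0.901). Arrays of the same strain shared no membrane, so these ranges are not like for like. Before centring, the median log2 ratio was 0.51, 1.01 and 0.93 on haploid run-ons 1, 2 and 3, and -0.03, 0.76 and 0.86 on those of the cln3 deletion. The ranges overlapped, and within the 2 membranes that held both strains the cln3 deletion was 1.04 lower on membrane 13 and 0.16 lower on membrane 14. The sources used here give neither exposure nor the amount of labelled RNA, and the comparisons below set each spot against the rest of its array.

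The question put to the spots was where the cln3 deletion gained or lost transcribing polymerase relative to the haploid. Most spots did not move far: of the 3988 tested spots with S/N of at least 2 on all 6 arrays, 94.3% differed by less than 1.5-fold, 16 were more than 2-fold higher and 21 more than 2-fold lower. In the fit of all 18 arrays 41 of 5933 tested spots passed (0.691%), and 409 had an unadjusted p under 0.05 (6.89%). Of the 41, 20 spots rose in the cln3 deletion (0.337% of those tested) and 21 fell (0.354%), at an adjusted p under 0.05 in limma with Benjamini-Hochberg adjustment. The 20 that rose had a median level of -1.12 in the haploid and 1.21 in the cln3 deletion. The 21 that fell went the other way, from a median of 1.86 to -0.55. Of these spots 19 of the rises and 20 of the falls had all 6 values, and 1 of each had a single value in the dim strain, which leaves that call without a replicate check there. At each of those with 6 values the strains did not overlap, as at 6.36% (cln3 deletion above) and 6.96% (below) of the 5879 spots with all 6 values. The calls were made on these same values, so the lack of overlap largely follows from the call and adds no support. The median standard error of a difference was 0.26 on the log2 scale. Among the rises 12 were measured with S/N of at least 2 on some array of both strains (log2 differences of 0.70 to 3.36, median 1.76), and 8 were below that on all haploid arrays. Among the falls 14 were so measured (-4.33 to -0.90, median -1.89), and 7 were below it on all cln3 deletion arrays. The count rested in part on single arrays: 14 rises and 5 falls passed without haploid run-on 3, and 14 and 9 without cln3 deletion run-on 2. With only the 6 arrays in the fit 14 rises and 8 falls passed.

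**Figure D1:**
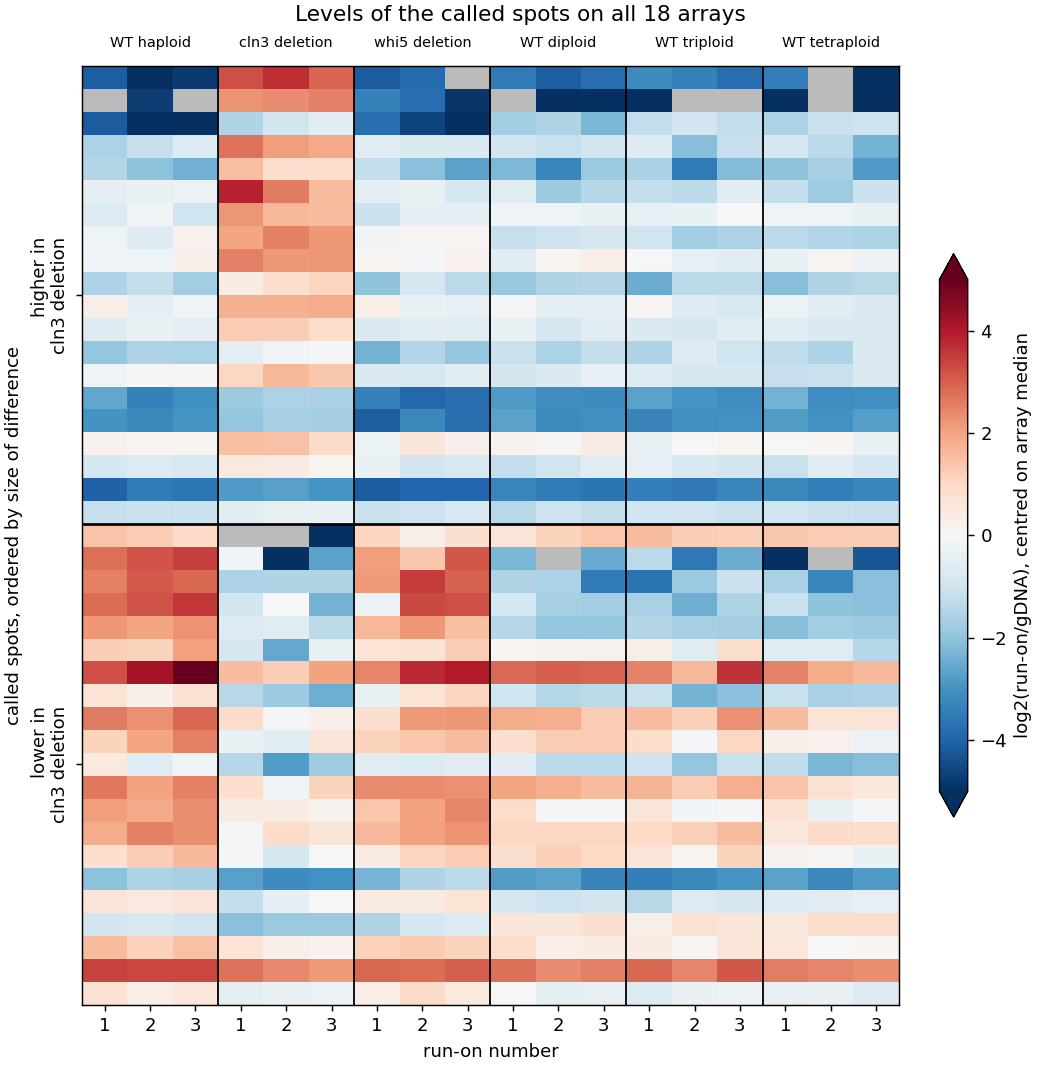
Level (log2 of run-on over genomic DNA, centred on the array median, colour) of the 41 called spots (lines) on the 18 arrays (columns, run-on 1 to 3 of each strain); grey marks a signal of 0. At the 20 spots above the line the cln3 deletion stands out from all 5 other strains, except at 1 of them. At 13 of the 21 below it all 3 polyploid means are nearer to the cln3 deletion. The whi5 deletion is nearer to the haploid at all 20 above and all 21 below. The spots were chosen for the distance between haploid and cln3 deletion.

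The means of the other 4 strains had not been used to choose the spots. Those of the diploid, triploid and tetraploid stood differently at the rises and at the falls. The whi5 deletion lay nearer to the haploid at all 20 rises, for which no share over all spots was worked out, and at all 21 falls. Of the 20 spots that rose, 19 had all 3 cln3 deletion values above every measured value of the other 15 arrays, as did 1.62% of the 5933 tested spots. The whi5 deletion had a median level of -0.83 there, and the diploid, triploid and tetraploid had -1.24, -1.10 and -1.30, beside the haploid's -1.12. Of the 21 that fell, 2 had the cln3 deletion below every other array, as did 0.354% of those tested. The whi5 deletion lay nearer to the haploid at all 21 of these (median level 1.36), against 56.8% of the 3051 tested spots with a lower level in the cln3 deletion, while the diploid, triploid and tetraploid means were all 3 nearer to the cln3 deletion at 13 of them, against 31.2% of those 3051, with medians of 0.28, 0.23 and -0.03. These counts describe spots chosen for the distance between haploid and cln3 deletion, and the split was not tested. The shares beside them take spots with a difference of any size (median absolute log2 difference over all spots 0.18). They are thus not like for like. Against the mean of the other 4 strains, which leaves out the haploid but uses the same cln3 deletion arrays, 124 spots were higher in the cln3 deletion (2.09% of 5933) and 25 lower (0.421%), by limma at the same threshold. The higher ones had a median level of -0.15 in the cln3 deletion, -1.29 in the other 4 strains and -0.90 in the haploid, and 55 of the 124 had S/N of at least 2 on all 18 arrays. With membrane as a fixed block 44 were higher and 2 lower, and without cln3 deletion run-on 2 or 3 the totals were 69 and 88.

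The spots given here are the 2 largest called rises that reached an S/N of 2 on all 6 arrays and in the genomic DNA. Their rule also demanded no overlap of the strains and the same direction on membranes 13 and 14, so neither of these is a result. At row 3, column 7, position 7 the level was -0.22, -0.63 and 0.22 on haploid run-ons 1 to 3 and 1.96, 2.51 and 2.16 on those of the cln3 deletion. No array of the other 4 strains came above 0.15. The rise was 2.42 on the log2 scale (SE 0.23, adjusted p = 3.05e-05 by limma), with 2.58 on membrane 13 and 2.29 on membrane 14. At row 2, column 6, position 9, a bright spot, the level was -0.15, -0.20 and 0.25 in the haploid and 2.50, 2.16 and 2.21 in the cln3 deletion. The other 12 arrays ran from -0.55 to 0.32 and so covered the haploid values. Here the rise was 2.32 (SE 0.24, adjusted p = 5.12e-05 by limma), with 2.71 and 1.91 on the shared membranes. Against the mean of the other 4 strains the differences at these spots were 3.18 and 2.40.

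Under the same rule, with the direction turned, the strains lay in 2 sets at the largest called fall. At row 16, column 20, position 1 the haploid stood at 2.52, 3.08 and 2.85 and the cln3 deletion at -1.55, -1.48 and -1.49. The cln3 deletion signal was close to the noise, with S/N of 2.17, 3.66 and 2.91. The whi5 deletion stood with the haploid (2.87 ± 0.68, SD, n = 3), while the diploid (-2.19 ± 1.14), triploid (-2.19 ± 1.32) and tetraploid (-2.32 ± 0.85) were low like the cln3 deletion. The lowest value of each polyploid (-3.50, -3.65 and -3.26) was on its membrane 18 array. The run-on signals there, 61.3, 39.6 and 40.2, lay within the 31.1 to 137.2 of the other polyploid arrays. These SDs thus include a difference between membranes. The log2 difference from the haploid was -4.33 (SE 0.62, adjusted p = 0.0015 by limma), with -4.63 and -4.34 on membranes 13 and 14, while the cln3 deletion differed from the mean of the other 4 strains by -0.55 (adjusted p = 0.781 by limma). At row 7, column 14, position 4, another bright spot, the haploid read 3.22, 4.17 and 5.02 and the cln3 deletion 1.54, 1.23 and 2.02. The whi5 deletion, diploid, triploid and tetraploid means (3.38, 2.91, 2.57 and 1.98) lay between the means of these strains. From the mean of the other 4 strains the cln3 deletion differed by -1.12 (adjusted p = 0.219 by limma). The haploid arrays were more spread than at the other 3 spots (SD 0.90), and the cln3 deletion lay below all of them, as the rule demanded. The difference of -2.54 from the haploid (SE 0.50, adjusted p = 0.0226 by limma) was -2.63 on membrane 13, -3.79 on membrane 14 and -1.21 between the arrays on membranes 15 and 12. Its call was lost without haploid run-on 2 or 3, without cln3 deletion run-on 1 or 2, and with only the 6 arrays in the fit (adjusted p = 0.0867, 0.157, 0.0777, 0.134 and 0.104 by limma, with log2 differences between -2.10 and -2.54).

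Spots with signal in a single strain, and spots without signal in a single strain, were counted. Signal with S/N of at least 2 on all 3 arrays of the cln3 deletion and on none of the other 15 was found at 4 spots, called a to d here. No spot had this pattern for any of the other 5 strains. The reverse, S/N under 2 on all 3 arrays of the cln3 deletion and of at least 2 on all other 15, was found at 1 spot, against 1 for the haploid, 2 for the whi5 deletion and 0 for each polyploid. Which open reading frames these spots carry is not given, and they were singled out after their values were seen.

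At the spot without signal in the cln3 deletion, the deposited run-on signal was 96.3, 179.8 and 86.3 on the haploid arrays and 0, 0 and 0.873 on the cln3 deletion arrays. It was a bright spot elsewhere, with levels between 0.28 and 1.53 on the other 15 arrays. The level was at least 7.6-fold lower in the cln3 deletion, a bound that rests on the haploid arrays, the faintest measurable signal and the genomic DNA. Its limma fit had only 1 cln3 deletion value, at an S/N of 0.08, so its p-value is not given and supports nothing. Its genomic DNA was faint and uneven, with S/N from 0.11 to 5.84 on membranes 12 to 15. The levels and the bound are divided by it, whereas the deposited signals are not.

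Spot d gave the strongest signal found in the cln3 deletion alone, 278.5, 379.4 and 390.2 against 0.68, 0.442 and 1.198 on the haploid arrays. It was at least 18-fold higher, with no p-value given because its haploid values had S/N of 0.08, 0.02 and 0.09. Spot a read 193.9, 188.5 and 335.3 against 0, 3.124 and 0, at least 16-fold higher, with no p-value given because its limma fit had only 1 haploid value, at an S/N of 0.09. Both are thus bright in 1 strain and dark in the other 5. Spot b was dimmer, with 33.4, 38.7 and 43.7 against 5.945, 3.726 and 5.834, at least 2.8-fold higher (adjusted p = 0.0015 by limma). Spot c gave 56.2, 63.4 and 73.9 against 7.07, 9.73 and 7.46, at least 4.5-fold higher (adjusted p = 0.00507 by limma). The haploid S/N was at most 0.97 at b and 0.52 at c. Both spots were picked on these same arrays, so their p-values add no support. At b and c the genomic DNA was below S/N of 2 on all of membranes 12 to 15, at a on 1 of these 4 and at d on 2. A bound ("at least") sets the brighter strain's mean level against, per array, the dim spot's signal or, if higher, the faintest one that reached an S/N of 2 on that array. Both sides are divided by genomic DNA, so a bound carries its noise.

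**Figure D2:**
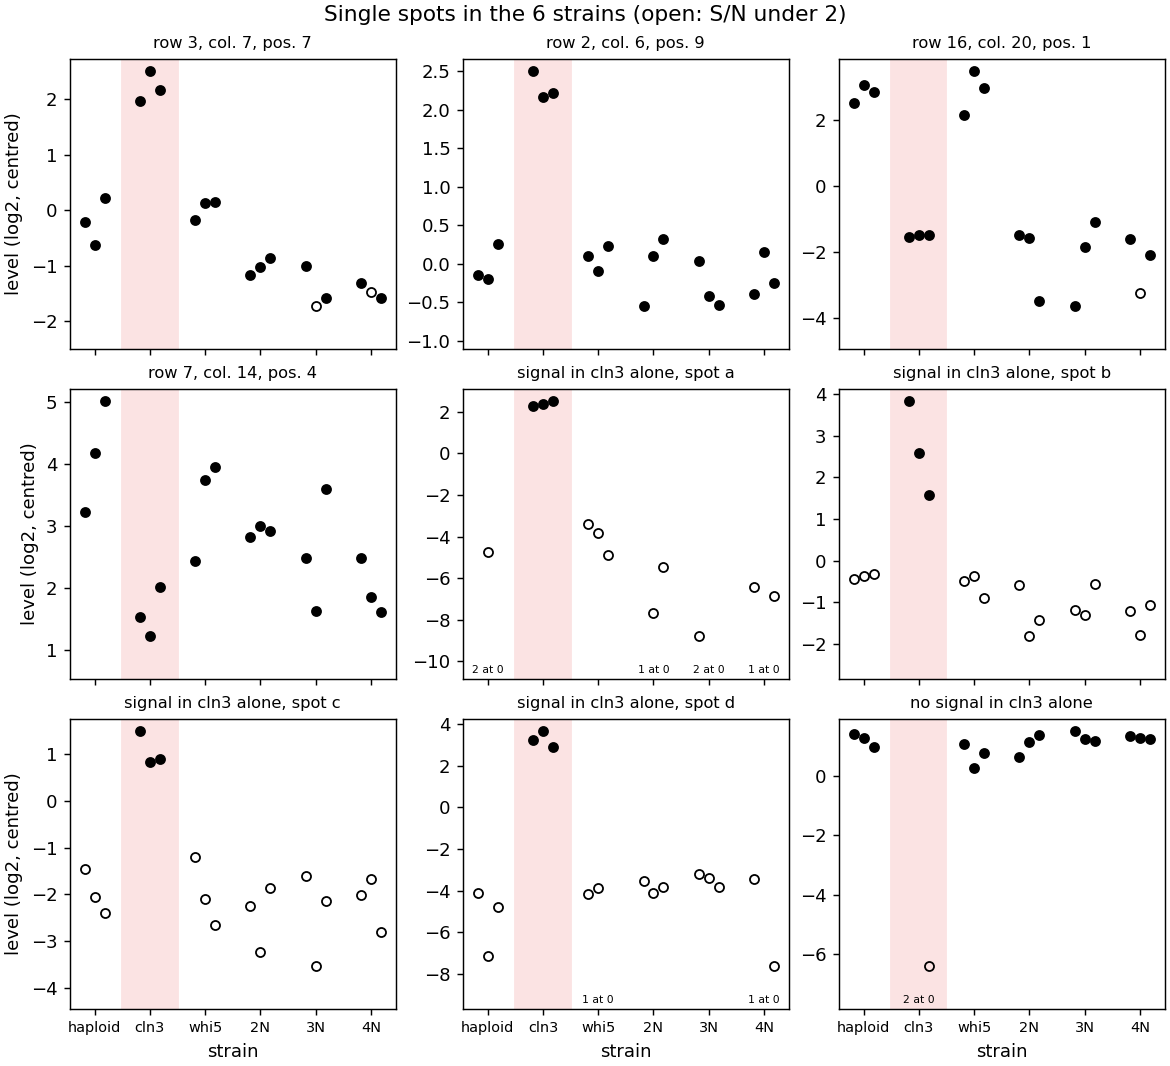
Level (log2, centred on the array median) of 9 spots on the 3 arrays of each strain: the 4 spots named by place, spots a to d with signal in the cln3 deletion alone, and the 1 without signal there alone. Filled points have S/N of at least 2, open points less, and signals of 0 are counted at the foot. The cln3 deletion (shaded) stands above every other array at row 3, column 7 and row 2, column 6, and shares its low level with the 3 polyploids at row 16, column 20.

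Gain or loss of signal was also counted under a stricter demand on the DNA. Of the 2981 spots with genomic DNA S/N of at least 2 on membranes 12 to 15, 13 were gained, with S/N of at least 2 on all 3 cln3 deletion arrays and under 2 on all 3 haploid arrays (0.436%), and 3 were lost (0.101%). Few of these were clear. At 8 of the 13 and all 3 the lowest S/N of the one strain exceeded the highest of the other by less than 1. The limma test was passed by 2 of the 13 and 1 of the 3, beside 41 of all 5933 tested spots (0.691%). The test used the arrays on which the spots were chosen, so these counts add no support. Reaching the S/N limit did not always go with a higher level: the log2 differences of the 13 ran from -1.06 to 4.24, and the bound was under 2-fold at 10 of them. Against the same haploid arrays the whi5 deletion gained 5 and lost 4, the diploid 18 and 0, the triploid 10 and 2, and the tetraploid 16 and 3. These counts share the haploid arrays, on which fewer spots reached that S/N than on those of the cln3 deletion (4192 against 4372, given above). All 13 spots had S/N of at least 2 on at least 1 of the 12 arrays of the other strains. With S/N under 1 demanded on the dim side, 2 spots remained gained and 0 lost. One of the 2 called gains had S/N of at least 2 on 8 of those 12 arrays and rose at least 3.1-fold (adjusted p = 0.000183 by limma). The other rose at least 1.7-fold (adjusted p = 0.011 by limma) and reached that S/N on 1 of the 12. The called loss was at least 3.6-fold (adjusted p = 0.0271 by limma).

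Membranes 13 and 14 each held 1 array of both strains, so the genomic DNA cancels in the difference within a membrane, and the differences on the 2 membranes have no run-on array in common. Over 5879 spots they correlated with r = 0.51 (Spearman's rho 0.45), and with r = 0.40 without the called spots. The remaining pair, cln3 deletion run-on 3 on membrane 15 and haploid run-on 1 on membrane 12, correlated with membrane 13 at r = -0.12 and with membrane 14 at r = 0.29. These are descriptions over spots that share membranes and DNA, and on both shared membranes the cln3 deletion array has the run-on number 1 below that of the haploid array, so run-on number moves with the strain there. With density not corrected for background r was 0.30 between membranes 13 and 14.

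Large differences on one membrane recurred in direction on the other. Of 37 spots more than 2-fold higher on membrane 13, among those reaching an S/N of 2 on its arrays and those of membrane 14, 33 were higher on membrane 14 (45.3% of all 4241 such spots were) and 14 more than 2-fold (0.589%). Of 100 more than 2-fold lower on membrane 13, 88 were lower on membrane 14 (54.7%) but only 12 more than 2-fold (0.967%), and their median shrank from -1.17 to -0.42. Selecting on membrane 14 gave 25 spots more than 2-fold higher, all 25 higher on membrane 13 (44.6% of all 4241) and 14 of them more than 2-fold (0.872%). It gave 41 more than 2-fold lower, 39 of them lower on membrane 13 (55.4%) and 12 more than 2-fold (2.36%). The arrays on membranes 15 and 12, used in neither selection, then served as a check. Of 14 spots more than 2-fold higher on both shared membranes with S/N of at least 2 on all 6 arrays, 14 were higher between these arrays (51.8% of 3988) and 10 more than 2-fold (3.31%), with a median of 1.40. Of 11 spots more than 2-fold lower on both, 11 were lower (48.2%) and 6 more than 2-fold (3.99%), with a median of -1.21. Of these 25 spots 16 were among the called ones, as were 0.691% of the 5933 tested spots. The calls were made with these same arrays, so this overlap is no further check.

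**Figure D3:**
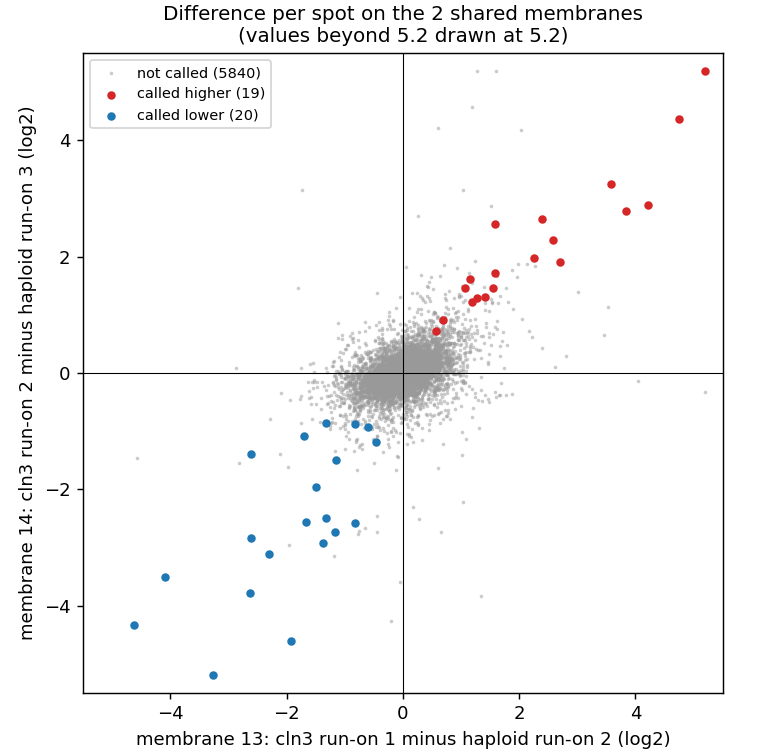
Log2 difference, cln3 deletion minus haploid, of each spot on membrane 13 (horizontal) and membrane 14 (vertical), for 5879 spots with all 6 values. The 19 called higher and 20 called lower spots lie in the corners where both membranes differ the same way, and the uncalled spots form a cloud tilted along the diagonal (r = 0.40). The calls were made with these arrays.

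The dependence on brightness was measured with the spots ranked by their signal on the 12 arrays of the other strains, so that noise of the compared arrays did not set the order, and divided into 10 bins from the dimmest (bin 1) to the brightest (bin 10). The widest gap between the strains was at the bright end. In bin 10, 594 spots, the median level relative to the other 4 strains was 0.05, 0.22 and 0.25 on haploid run-ons 1 to 3 and -0.01, 0.07 and -0.05 on those of the cln3 deletion. The groups overlapped, because haploid run-on 1 lay below cln3 deletion run-on 2. The difference was -0.17 (two-sided exact permutation test on 3 against 3 arrays, p = 0.2, with 0.1 the smallest possible), and the median difference of these spots was below 0 on membrane 13 (-0.23), membrane 14 (-0.17) and in the remaining pair (-0.12). Over the 60 brightest spots, a set added after the bins were seen, the medians were 0.23, 0.43 and 0.51 in the haploid and 0.08, 0.11 and -0.13 in the cln3 deletion, with no overlap. The difference of -0.37 reached the smallest p the design allows (two-sided exact permutation test, p = 0.1), which does not pass 0.05. Here the cln3 deletion lay near the mean of the other 4 strains (0.02 ± 0.13, SD, n = 3), and the haploid lay above it (0.39 ± 0.15, SD, n = 3).

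At the dim end the run-on 1 arrays of both strains stood apart. In bin 1 they were raised, to 0.38 in the haploid and 0.46 in the cln3 deletion, whereas the other 4 arrays lay between -0.11 and 0.13. The median difference there was 0.34 on membrane 13, 0.24 on membrane 14 and -0.20 in the remaining pair. The pairs thus disagree in sign. The slope of level on brightness over all spots, in log2 units per log2 unit of signal, was -0.071, 0.005 and 0.073 on the haploid arrays and -0.103, -0.015 and -0.030 on those of the cln3 deletion. These overlapped and differed by -0.052 (two-sided exact permutation test, p = 0.4). The size rested on single arrays: it was -0.017 without haploid run-on 3, -0.025 without cln3 deletion run-on 1, -0.089 without haploid run-on 1, and -0.098 within membranes 13 and 14. Of the 20 spots that rose, 12 lay in bins 1 to 3 and 1 in bins 8 to 10, and of the 21 that fell, 6 and 8. What part the dim-end shift has in the rises was not tested.

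**Figure D4:**
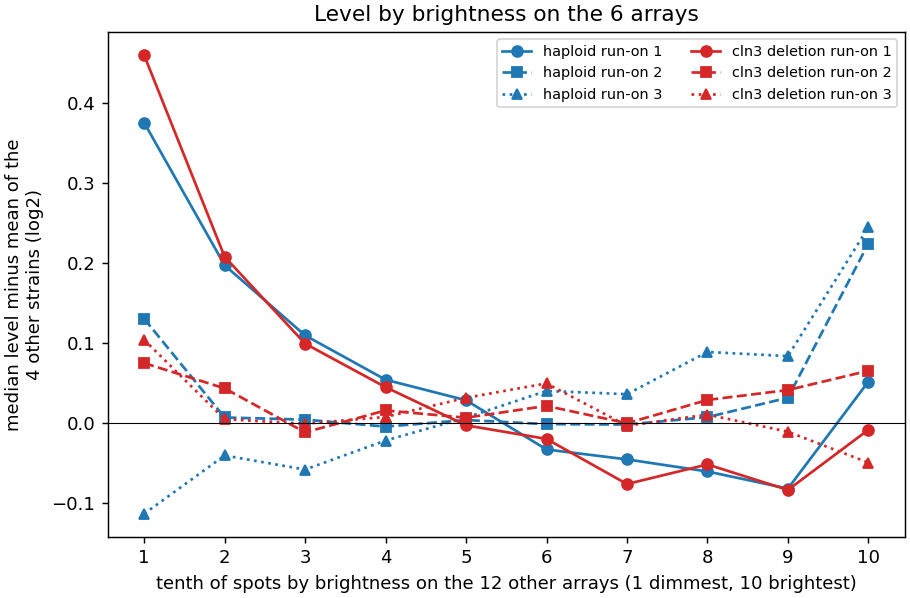
Median level minus the mean of the 4 other strains (log2) on each of the 6 arrays, in 10 bins of spots ranked by signal on the 12 other arrays. The 3 haploid arrays lie at 0.05 to 0.25 in bin 10 and the 3 cln3 deletion arrays at -0.05 to 0.07, while in bin 1 the run-on 1 arrays of both strains are the highest, at 0.38 and 0.46.

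Place on the membrane moved with the differences as well. On membrane 13 the median difference ran from -0.20 in block row 1 to 0.20 in row 16, and on membrane 14 from -0.10 to 0.21. The remaining pair went the other way, from 0.04 to -0.12. Over all 6 arrays the medians of the rows lay between -0.12 and 0.09. Rows 9 to 16 minus rows 1 to 8 gave 0.06, -0.01 and -0.14 on the haploid arrays and 0.28, 0.06 and -0.04 on those of the cln3 deletion, a difference of 0.13 (two-sided exact permutation test, p = 0.4). It was 0.04 without cln3 deletion run-on 1, 0.08 without haploid run-on 3 and 0.20 without cln3 deletion run-on 3. The called spots lay on either side, with 11 of the 20 rises and 10 of the 21 falls in rows 1 to 8. With every row of every array centred on its own median, 29 spots rose and 27 fell, and 39 of the 41 called spots passed again. The correlation of membranes 13 and 14 was then 0.47.

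**Figure D5:**
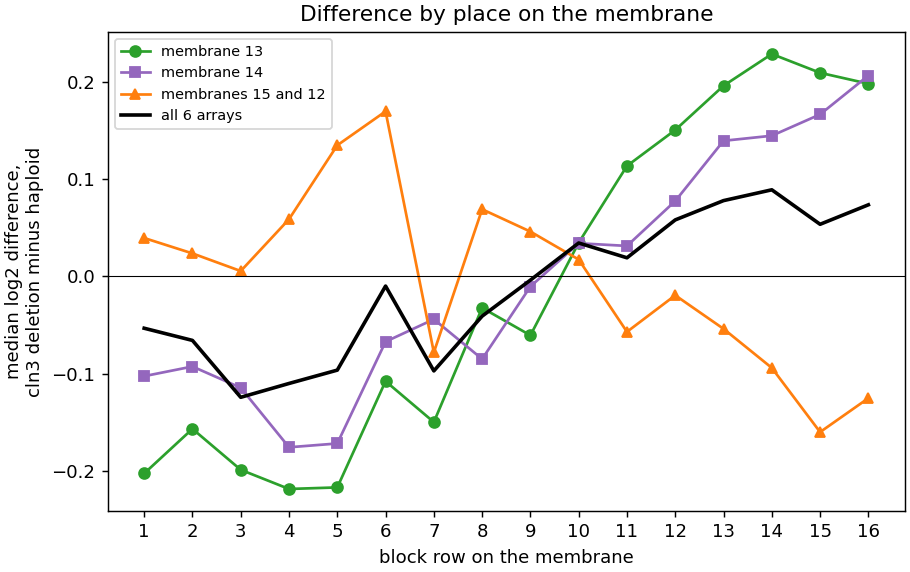
Median log2 difference, cln3 deletion minus haploid, of the spots in each of the 16 block rows, on membrane 13, on membrane 14, between the arrays on membranes 15 and 12, and over all 6 arrays (black). From row 1 to row 16 the difference goes from -0.20 to 0.20 on membrane 13 and from -0.10 to 0.21 on membrane 14, and from 0.04 to -0.12 in the remaining pair.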

How the data were processed

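The authors deposited 36 spot tables, 18 of run-on arrays and 18 of genomic DNA, the latter copies of 7 hybridisations, 1 per membrane. Per the file headers, the density is an intensity per area (photostimulated luminescence per square mm). A further deposited intensity column equals the density less its background, with 0 in place of negative values. S/N, as deposited, is a score proportional to that column within a background area, with no formula given. The sources used here do not name the imaging program, and the normalisation by median absolute deviation (MAD) that the series text names is not visible in these values. Membrane and run-on number were read from the array names.

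Background-corrected run-on signals were divided by those of genomic DNA on the same membrane, and log2 ratios were centred by array. Spots entered with genomic DNA above 0 on all 7 membranes and run-on above 0 throughout any 1 strain (5937 of 6144). Signals of 0 were missing values (0.269% on the 6 arrays). All 18 arrays were fitted as strain means with limma 3.58.1 in R 4.3.3 (lmFit, eBayes), with statmod 1.5.0 for the random block. Depth is not defined for these arrays, and the 3 arrays per strain limit the precision. The fit was tested on simulated data with independent noise and no effect of membrane, run-on number or row. It recovered 70% of spots changed by a log2 difference of 1 and 95% of those changed by 2. False calls made up 5.17% of its calls. Real arrays, which have such effects, may fare otherwise.

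Alternatives covered scaling, the genomic DNA, background, filters, blocks, the arrays fitted and leaving out each array. The comparison, thresholds and lists were chosen with earlier results of these data known. Spots given by place follow 1 rule: the 2 largest called differences in each direction among those reaching an S/N of 2 on all 6 arrays and in genomic DNA on membranes 12 to 15, with no overlap of values and the same direction on membranes 13 and 14. The planned lists of G1/S, osmotic stress and ribosomal protein genes were not run, because spots have no gene names.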

Additional observations from a re-analysis of the deposited data

How the results depend on the processing

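The 41 called spots became 26 among the upper 75% of spots by signal, 18 with genomic DNA S/N of at least 2 on all 7 membranes, where 2062 spots were tested, and 22 with only the 2 strains in the fit. Membrane as a random block gave 88 and as a fixed block 32. Leaving out each array in turn gave 19 to 38. Deviations of same-numbered arrays of the 2 strains from their strain means correlated at 0.43, -0.13 and 0.22. Arrays of unlike number correlated at -0.62 to 0.59. Deviations from a mean of 3 arrays are bound to one another, so these values cannot settle whether run-on number pairs the arrays. With run-on number as a replicate block 56 spots passed, and with membrane as a fixed block in addition 300, 126 higher and 174 lower. The cause was not tested. The other 3 scalings (MAD, quantile, cyclic loess) gave 43, 51 and 44 spots, among them 36, 37 and 36 of the 41. Against the mean of the other 4 strains, 149 spots became 226 with run-on number as a block, 46 with membrane as a fixed block and 69 to 103 without 1 cln3 deletion array. The correlation of membranes 13 and 14 was 0.298 with uncorrected density. Gained spots numbered 24 at an S/N of 3, 32 without the genomic DNA filter, 2 with S/N under 1 on the dim side and 15 to 24 without 1 array. Lost spots numbered 0 at an S/N of 1.5, 1 at an S/N of 3, 10 without that filter, 0 with S/N under 1 on the dim side and 4 to 9 without 1 array, where fewer arrays had to meet the demand. The overall level, the brightness measures and the difference between upper and lower rows moved by less than 1 SD between arrays under all their alternatives, but that SD is wide: the brightness slope ran from -0.0982 to -0.0166, and the overall level from -0.451 to -0.003. At the 4 spots given by place the direction held under all 24 alternatives. Their rule had demanded values without overlap, so leaving out 1 array could not turn the direction. This result was thus largely fixed in advance.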
